A study of Mus musculus with 24 samples.

Results

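The genes described here carry fatty acids through a muscle cell: they take them up, bind and activate them, store them in lipid droplets, pass them into mitochondria and oxidise them there, or regulate these steps. They were chosen by symbol from known function, with earlier results of these data known, and number 46 of the 48544 genes listed. Messenger RNA was sequenced with a stranded polyA kit in 24 libraries of wild-type C2C12, an established mouse myoblast line that fuses into myotubes when serum is lowered. The 6 groups of 4 libraries were day 7 myotubes in 2% fetal bovine serum and day 0 myoblasts in 10% serum, myotubes given 100 µM dexamethasone for 24 h and myotubes given vehicle medium for 24 h, and myotubes given dexamethasone or vehicle for 72 h, all treated and vehicle cultures in 2% serum. Dexamethasone is a synthetic glucocorticoid that induces atrophy in cultured myotubes, and the vehicle medium held 1% ethanol. Whether the dexamethasone medium held ethanol too is not given in the labels. The origin of the replicates is not stated either, so p-values measure the spread between these libraries, which may be technical. All groups come from 1 line, and the lower serum is part of the differentiation comparison.

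Long-chain fatty acids enter muscle through membrane proteins such as CD36, are held by a cytosolic binding protein, and become acyl-CoA through acyl-CoA synthetases. CPT1 in the outer mitochondrial membrane commits acyl-CoA to the carnitine shuttle, after which a spiral of dehydrogenation, hydration and thiolysis releases acetyl-CoA, while surplus acyl chains are esterified and kept in droplets coated by perilipins. Nuclear receptors of the PPAR family and their coactivators PGC-1α and PGC-1β control many of these genes, and glucocorticoids act through a nuclear receptor of their own.

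Levels below are in TPM, a length-scaled share of a library's transcripts in which 2 genes may be compared. Folds are ratios of mean TPM and are given where the lower mean was at least 0.5 TPM. Tests used the deposited log2-scale values with limma over 16257 genes, and a gene was called higher or lower at a Benjamini-Hochberg adjusted p below 0.05. Of the 46 genes, 44 passed the filter on low values. The 2 others were Acss1, which makes acetyl-CoA from acetate in mitochondria and averaged at most 0.0572 TPM in any group, and Plin5, a droplet coat protein that ties droplets to mitochondria in oxidative tissue and averaged at most 0.0269 TPM. Plin5 read 0.0333, 0.0421, 0.0196 and 0.0129 TPM in dexamethasone at 72 h, against 0, 0.0113, 0 and 0 TPM in vehicle. It read 0 in all 4 libraries of vehicle at 24 h and was near 0 throughout.

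In all libraries the 46 genes together summed to between 1817 and 2657 TPM. The 13 β-oxidation enzymes made up the largest share, with 950.5 ± 38.2 TPM in dexamethasone at 72 h and 974 ± 22.0 TPM in vehicle at 72 h (SD, n = 4 each). The summed level of these genes differed less between groups than single genes, some of which differed by more than 10-fold. The map of all tested genes by library shows where that movement lay.

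**Figure D1:**
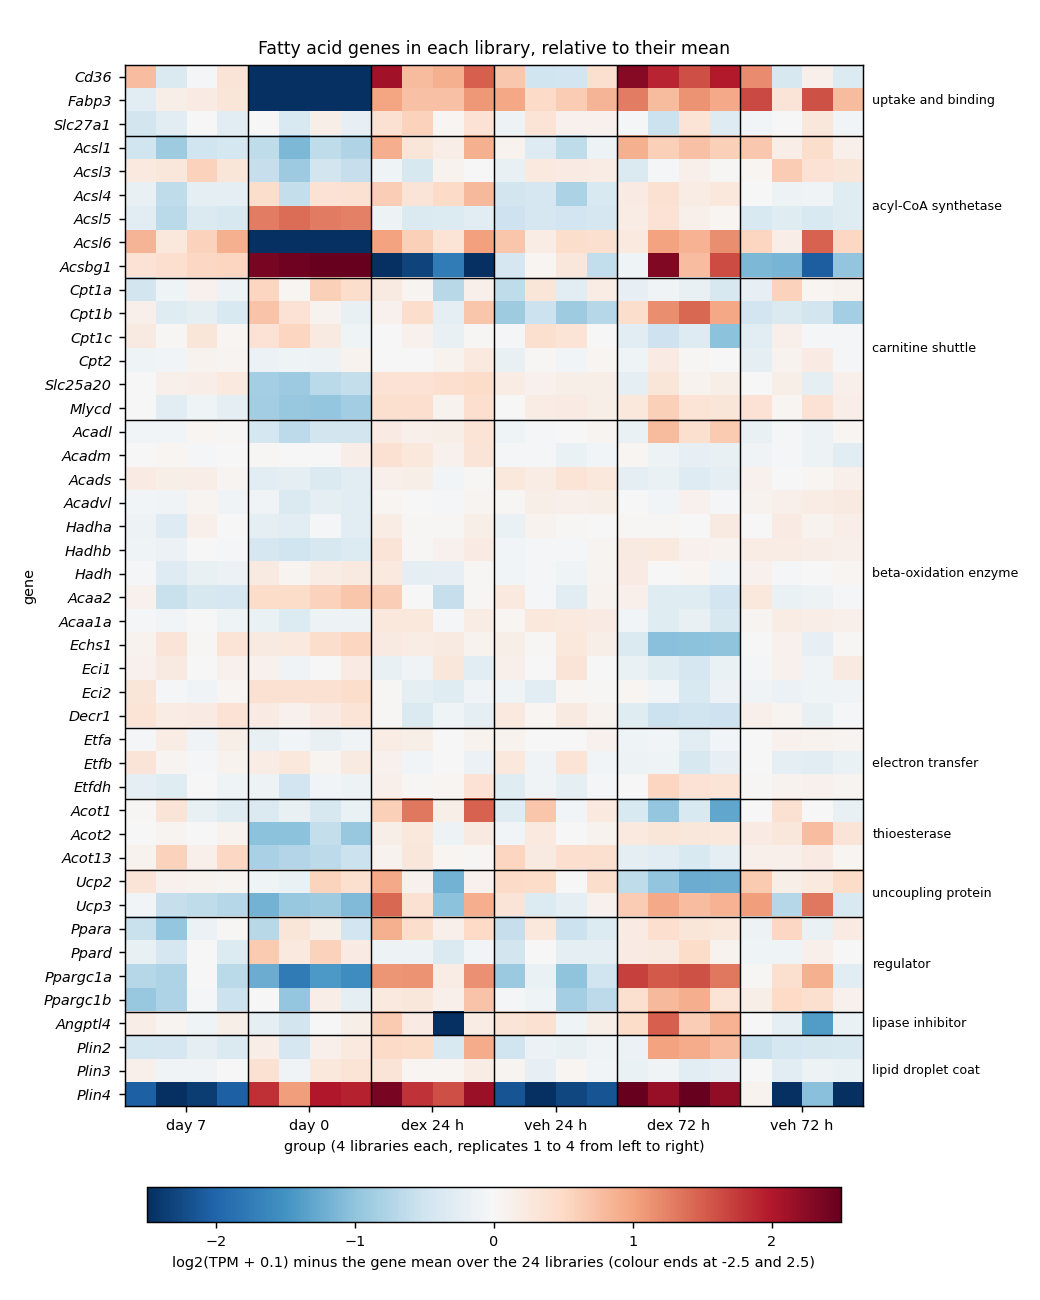
Each row is 1 of the 44 tested genes, ordered by role, and each column 1 of the 24 libraries. Colour gives log2(TPM + 0.1) minus that gene's mean over all libraries, red above and blue below. Cd36, Fabp3 and Acsl6 are low in day 0 myoblasts alone, Plin4 is high in day 0 myoblasts and under dexamethasone, Acsbg1 is lowest in dexamethasone at 24 h, and most β-oxidation rows stay pale.

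Between 12428 and 13030 genes per library reached 1 TPM, no 2 libraries were identical, and sequencing depth is unknown because neither deposited table keeps it. The 10 myotube markers summed to between 14947 and 23686 TPM in the 5 myotube groups, against 251 to 399 TPM in day 0 myoblasts. Replicate 1 stood apart at 72 h. Genes at 0.2 TPM or less in the rest of their group and at 2 TPM or more on average in the other arm reached a median of 12.5% of the other arm's same-numbered library in dexamethasone 72 h replicate 1 (27 genes) and 11.1% in vehicle 72 h replicate 1 (34 genes). In the remaining libraries at 72 h that median was 0 to 1.81%. At 24 h it was 0% in dexamethasone replicates 1 and 2, 7.48% in replicate 3 (11 genes) and 58.7% in replicate 4 (12 genes), and 0.199 to 1.30% in vehicle libraries. Folds of named genes at 72 h are therefore given with and without both replicate 1 libraries. Folds at 24 h include dexamethasone replicate 4, whose share was higher still but rests on 12 genes, and none is given without that library. The calls that missed the threshold without it are named below. In that library called genes such as Acsl4, Cpt1b and Pdk4 read highest of the treated arm and G0s2 lowest. Fabp4, which rose, read lowest there as well. What the share of 58.7% reflects was not tested.

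The promoters of the 3 genes whose rise under dexamethasone is described most fully, the droplet coat genes Plin4 and Plin2 and the uptake gene Cd36, are shown as the 250 bases before the RefSeq transcription start (build GRCm38.p6, which is not the build of the authors' processing). They lie on the minus strand at chr17:56109783-56110032, chr4:86670060-86670309 and chr5:17835897-17836146, are written 5′ to 3′ along the gene, and carry the motif CCAAT or its reverse complement in capitals.
Plin4: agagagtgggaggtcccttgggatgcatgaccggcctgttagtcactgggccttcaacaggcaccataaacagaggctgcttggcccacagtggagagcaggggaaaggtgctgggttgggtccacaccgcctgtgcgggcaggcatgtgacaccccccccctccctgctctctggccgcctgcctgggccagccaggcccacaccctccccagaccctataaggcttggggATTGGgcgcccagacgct
Plin2: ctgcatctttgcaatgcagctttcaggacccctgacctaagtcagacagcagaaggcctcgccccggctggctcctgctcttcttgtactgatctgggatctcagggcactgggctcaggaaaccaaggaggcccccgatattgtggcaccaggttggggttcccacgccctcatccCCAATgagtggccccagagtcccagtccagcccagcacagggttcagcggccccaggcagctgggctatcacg
Cd36: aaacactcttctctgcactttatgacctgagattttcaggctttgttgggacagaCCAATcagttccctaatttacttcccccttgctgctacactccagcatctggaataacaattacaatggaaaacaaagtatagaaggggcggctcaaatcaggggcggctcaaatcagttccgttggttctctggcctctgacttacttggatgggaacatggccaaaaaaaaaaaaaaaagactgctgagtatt
The Plin4 window held 65.2% G and C, the Plin2 window 61.6% and the Cd36 window 43.2%. RefSeq windows matched 40 of the 46 genes, with 46 windows. The 6 genes without a window, which were not searched, were Acot13, Decr1, Cpt1b, Angptl4, Acaa2 and Ppargc1b. Both strands were searched for letters of the PPAR direct repeat (AGGNCA, 1 base, AGGNCA) and of the glucocorticoid element (AGAACA, 3 bases, TGTTCT, and a looser form ending in TGTNCT, which includes it). None of the 46 windows held any of these, against 0.338%, 0.00913% and 0.0365% of all 32851 windows of the same length. At such rates 46 windows of any genes would usually hold none, so the lack of matches does not set these genes apart. Shorter strings were added after these counts were seen. AGAACA, the left end of the glucocorticoid element, was in 10.9% of the genes' windows against 16.1% of all windows, TATAAA in 0% against 12.4%, and CCAAT in 54.3% against 33.8%. The median G and C content was 59.8% in the genes' windows and 52.4% in all windows. These matches are descriptions of letters in these windows.

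Differentiation, which lowers serum and turns dividing myoblasts into myotubes, raised 2 of the 3 uptake and binding genes, Cd36 and Fabp3, and lowered the droplet coat gene Plin4. Of the 13 β-oxidation enzymes 6 were higher and 2 lower (4 and 3 on the TPM scale). That share called, 61.5%, was near the share of all genes tested. In day 7 myotubes against day 0 myoblasts, 16 of the 44 tested genes were higher and 8 lower. Over all genes tested, 60.3% were called (30.5% higher and 29.8% lower), beside 54.5% of these genes. Their median log2 difference on the deposited scale was 0.09, against 0.01 over all genes tested. All 7 division markers were lower after differentiation, with sums of 174 to 340 TPM in day 7 myotubes and 1232 to 1347 TPM in day 0 myoblasts. Fibroblast markers summed to 231 to 610 TPM in day 7 myotubes and 25.4 to 47.4 TPM in day 0 myoblasts, with 4 of 6 tested called higher. The part of either marker list in these results was not tested. In these bulk libraries, fewer cells of a kind and less RNA per cell cannot be told apart.

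Cd36, the scavenger receptor that brings long-chain fatty acids into muscle, read 13.9, 6.28, 7.92 and 10.2 TPM in day 7 myotubes, against 0.730, 0.407, 0.645 and 0.558 TPM in day 0 myoblasts. The groups were far apart, with a fold of 16.4 and a log2 difference of 2.24 ± 0.25 (SE, adjusted p = 9.06e-08). Fabp3, the cytosolic fatty acid binding protein of heart and muscle, read 42.7, 56.5, 59.1 and 63.3 TPM in day 7 myotubes, against 3.77, 3.06, 3.42 and 3.74 TPM in day 0 myoblasts. That was a fold of 15.8 (adjusted p = 1e-10). Values for Fabp3 come from the row with the gene's own identifier, since a pseudogene row carries the same name. Slc27a1, which encodes the transport protein FATP1, read 37.6, 43.1, 51.8 and 42.3 TPM in day 7 myotubes, against 51.7, 39.5, 56.8 and 44.5 TPM in day 0 myoblasts, and the libraries overlapped (adjusted p = 0.78).

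Of the 6 tested acyl-CoA synthetases, 2 were higher and 3 lower after differentiation. Acsl6, best known from brain, read 20.9, 13.9, 17.4 and 21.7 TPM in day 7 myotubes, against 1.44, 0.567, 1.35 and 1.17 TPM in day 0 myoblasts (16.3-fold, adjusted p = 5.89e-11). Acsl3, which sits on the endoplasmic reticulum and on droplets, read 148, 151, 186 and 154 TPM in day 7 myotubes, against 84.1, 66.7, 91.2 and 84.0 TPM in day 0 myoblasts (1.96-fold, adjusted p = 3.02e-08). Neither gene's groups overlapped. Acsl5, which is found on mitochondria and endoplasmic reticulum, fell to 17.9, 13.3, 16.6 and 16.3 TPM in day 7 myotubes, against 52.2, 56.9, 53.3 and 51.9 TPM in day 0 myoblasts. It was 3.34-fold lower, with an adjusted p of 6.43e-13. Acsbg1, the "bubblegum" synthetase for very long chains, fell to 2.56, 2.66, 2.86 and 2.91 TPM in day 7 myotubes, against 10.7, 11.1, 13.4 and 12.2 TPM in day 0 myoblasts (4.32-fold lower, adjusted p = 4.26e-05). Acsl4, which prefers arachidonic acid, was 1.43-fold lower with overlapping libraries (adjusted p = 0.0238), and Acsl1, the main synthetase of muscle and fat, averaged 8.73 ± 1.20 TPM in day 7 myotubes and 7.56 ± 1.14 TPM in day 0 myoblasts without being called (SD, n = 4 each, adjusted p = 0.179).

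In the carnitine shuttle, the carnitine-acylcarnitine carrier Slc25a20 (1.85-fold) and Mlycd, which destroys the CPT1 inhibitor malonyl-CoA (1.70-fold), were higher. Cpt1a, the liver form of the gatekeeper, read 17.6, 22.4, 26.2 and 22.3 TPM in day 7 myotubes, against 35.3, 25.1, 36.6 and 33.1 TPM in day 0 myoblasts. It was 1.47-fold lower with 1 pair of libraries out of order (adjusted p = 0.0271). Cpt1b, the muscle form, read 1.50, 1.08, 1.15 and 1.02 TPM in day 7 myotubes, against 2.29, 1.76, 1.46 and 1.19 TPM in day 0 myoblasts, and was not called (adjusted p = 0.137). Cpt1a thus stood above Cpt1b on the TPM scale in both groups. Cpt1c, a brain form, and Cpt2, the inner-membrane transferase, were not called.

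Of the 13 β-oxidation enzymes, 6 were higher and 2 lower, and on the TPM scale 4 were higher and 3 lower. The acyl-CoA dehydrogenases for long chains (Acadl, 1.40-fold), short chains (Acads, 1.35-fold) and very long chains (Acadvl, 1.14-fold) rose, as did the trifunctional protein subunits Hadhb (1.26-fold) and Hadha (1.09-fold) and the peroxisomal thiolase Acaa1a (1.10-fold). On the TPM scale Hadha (adjusted p = 0.244) and Acaa1a (adjusted p = 0.153) were not called. The mitochondrial thiolase Acaa2 was 1.79-fold lower and the hydroxyacyl-CoA dehydrogenase Hadh 1.27-fold lower. Acadm, for medium chains, the hydratase Echs1, the isomerases Eci1 and Eci2, and the dienoyl-CoA reductase Decr1 were not called. Eci2 averaged 53.3 ± 6.43 TPM in day 7 myotubes and 67.3 ± 1.32 TPM in day 0 myoblasts (SD, n = 4 each), with an adjusted p of 0.0695, and of 0.0468 with the replicate number as a block.

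Of the 3 genes that pass electrons from these dehydrogenases to the respiratory chain, Etfa was 1.14-fold higher while Etfb and Etfdh were not called. Of the 3 thioesterases, which release free fatty acid from acyl-CoA, 2 were higher. Acot13 read 96.1, 136, 98.8 and 130 TPM in day 7 myotubes, against 51.6, 54.3, 57.9 and 62.1 TPM in day 0 myoblasts (2.04-fold, adjusted p = 3.06e-07), and the mitochondrial Acot2 was 1.92-fold higher. Acot1, its cytosolic near-copy, was not called. Acot1 and Acot2 are so alike in sequence that reads may be divided between them uncertainly.

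Among the regulators, Ppargc1a, which encodes the coactivator PGC-1α, read 0.266, 0.251, 0.496 and 0.273 TPM in day 7 myotubes, against 0.153, 0.0752, 0.121 and 0.104 TPM in day 0 myoblasts (adjusted p = 0.000383). All values were low but did not overlap. Ppard, the PPAR form of muscle, read 15.1, 12.8, 17.2 and 13.5 TPM in day 7 myotubes, against 27.4, 20.4, 25.9 and 19.8 TPM in day 0 myoblasts (1.60-fold lower, adjusted p = 7.22e-06). Ppara, the PPAR form of liver and heart, read 0.131, 0.0758, 0.207 and 0.248 TPM in day 7 myotubes, against 0.112, 0.323, 0.281 and 0.146 TPM in day 0 myoblasts, with overlap. Ppargc1b, for PGC-1β, was not called either.

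Plin4, a droplet coat protein of fat and muscle, fell to 0.277, 0.155, 0.199 and 0.274 TPM in day 7 myotubes, against 5.40, 3.08, 6.07 and 5.77 TPM in day 0 myoblasts (log2 difference −2.82 ± 0.29, adjusted p = 2.68e-08). Plin2, the droplet coat protein found in most cells, read 96.8, 98.2, 112 and 103 TPM in day 7 myotubes, against 147, 98.3, 144 and 156 TPM in day 0 myoblasts. Its libraries overlapped and it was not called (adjusted p = 0.206), nor was Plin3, a coat protein that also cycles through the cytosol. Ucp2, an inner-membrane carrier, read 109, 93.8, 92.6 and 91.0 TPM in day 7 myotubes, against 80.5, 77.3, 129 and 115 TPM in day 0 myoblasts. Its muscle relative Ucp3 stood at 0.156, 0.0803, 0.0721 and 0.0641 TPM in day 7 myotubes, against 0.0179, 0.0391, 0.0447 and 0.0242 TPM in day 0 myoblasts. Angptl4, a secreted inhibitor of lipoprotein lipase and a known target of PPARs and of glucocorticoids, read 31.5, 29.6, 26.2 and 31.4 TPM in day 7 myotubes, against 23.7, 20.5, 28.4 and 31.4 TPM in day 0 myoblasts. None of these 3 was called. Leaving out a single library ended the calls of Acaa1a, Acsl4, Cpt1a, Etfa, Hadh or Hadha in this comparison, with adjusted p-values of 0.0513 to 0.113, and no other call.

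After 24 h, dexamethasone raised Plin4, Cd36, 2 synthetases, the muscle form of CPT1 and 3 of the 4 regulators (2 on the TPM scale). It lowered Acsbg1, and several enzymes by small amounts. Of the 44 tested genes 8 were higher and 6 lower, which is 31.8% of them, against 25.4% of all genes tested (13.2% higher and 12.2% lower). The difference between these shares was not tested. The median log2 difference of these genes was 0.02, against −0.01 over all genes tested. On the TPM scale 9 were higher and 4 lower. The count was 9 without dexamethasone 24 h replicate 4, where Acads, Acot13, Acsl3, Ppara and Ppargc1b missed the threshold, and 7 without vehicle 24 h replicate 3. Leaving out a single library ended the calls of Acads, Acadvl, Acot13, Acsl3, Cd36, Ppara or Ppargc1b (adjusted p-values of 0.0517 to 0.121) and no other.

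Plin4 read 7.96, 5.31, 4.66 and 6.78 TPM in dexamethasone at 24 h, against 0.245, 0.154, 0.218 and 0.245 TPM in vehicle. Every treated library lay above 4.6 TPM and every vehicle library below 0.3 TPM (log2 difference 3.07 ± 0.29, adjusted p = 1.01e-07). Plin2 read 184, 181, 101 and 251 TPM in dexamethasone, against 93.4, 118, 116 and 124 TPM in vehicle. Replicate 3 lay within the vehicle range and it was not called (adjusted p = 0.0735). Without the 72 h replicate 1 libraries, which enter through the shared estimate of spread, its adjusted p was 0.0298.

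Cd36 read 35.2, 14.1, 15.1 and 23.2 TPM in dexamethasone at 24 h, against 13.1, 5.75, 5.77 and 10.8 TPM in vehicle. The groups did not overlap, with a fold of 2.48 (adjusted p = 0.0157), but the call was lost without dexamethasone replicate 1 (adjusted p = 0.0688) or without vehicle replicate 2 (0.0518) or 3 (0.0627). Fabp3 read 102, 85.3, 85.3 and 110 TPM in dexamethasone, against 101, 71.2, 79.2 and 92.8 TPM in vehicle. Slc27a1 read 66.6, 76.2, 53.1 and 66.3 TPM in dexamethasone, against 47.2, 65.2, 55.7 and 55.5 TPM in vehicle. Neither was called, and the libraries of both genes overlapped.

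Acsl4 read 78.7, 63.6, 71.3 and 90.2 TPM in dexamethasone at 24 h, against 37.1, 38.3, 29.4 and 39.3 TPM in vehicle (2.11-fold, adjusted p = 3.26e-05). Acsl1 read 24.4, 16.0, 14.6 and 24.3 TPM in dexamethasone, against 13.8, 10.4, 8.33 and 12.0 TPM in vehicle (1.78-fold, adjusted p = 0.00441). Both genes separated the arms in every library. Acsbg1 was lower, with 0.114, 0.314, 0.515 and 0.138 TPM in dexamethasone, against 1.44, 2.05, 2.43 and 1.26 TPM in vehicle (log2 difference −1.66 ± 0.26, adjusted p = 8.68e-05). Acsl3 was 1.17-fold lower with overlapping libraries (adjusted p = 0.0306), and Acsl5 and Acsl6 were not called.

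Cpt1b read 1.48, 1.89, 1.14 and 2.25 TPM in dexamethasone at 24 h, against 0.687, 0.899, 0.684 and 0.785 TPM in vehicle (2.21-fold, adjusted p = 0.00259). Cpt1a read 28.3, 25.5, 14.9 and 26.6 TPM in dexamethasone, against 15.5, 30.0, 20.1 and 27.8 TPM in vehicle, with full overlap (adjusted p = 0.824). Cpt1a therefore remained above Cpt1b on the TPM scale in each library of both arms. The rest of the shuttle was not called.

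None of the 13 β-oxidation enzymes was called higher at 24 h and 3 were lower: Decr1 (1.24-fold lower), Acads (1.15-fold lower) and Acadvl (1.07-fold lower). On the TPM scale 2 were higher and 2 lower. Acadm averaged 92.3 ± 7.38 TPM in dexamethasone and 72.8 ± 3.10 TPM in vehicle (SD, n = 4 each), with an adjusted p of 0.0614, and of 0.0359 with the replicate block. Etfdh averaged 45.8 ± 4.91 TPM in dexamethasone and 37.0 ± 3.22 TPM in vehicle (adjusted p = 0.0624, and 0.0473 with the replicate block, limma). Acot13 was 1.22-fold lower, and Acot1 averaged 6.87 ± 2.80 TPM in dexamethasone and 3.94 ± 1.24 TPM in vehicle (adjusted p = 0.0643, and 0.0477 with the replicate block, limma).

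Ppargc1a read 1.19, 1.19, 0.577 and 1.22 TPM in dexamethasone at 24 h, against 0.215, 0.430, 0.197 and 0.323 TPM in vehicle (log2 difference 1.17 ± 0.19, adjusted p = 0.000105). Ppargc1b read 3.37, 3.44, 3.08 and 4.70 TPM in dexamethasone, against 2.77, 2.59, 1.51 and 1.75 TPM in vehicle (1.69-fold, adjusted p = 0.0206). Ppara read 0.535, 0.365, 0.273 and 0.381 TPM in dexamethasone, against 0.129, 0.309, 0.136 and 0.171 TPM in vehicle (adjusted p = 0.0375). The coactivators separated the arms, while 1 vehicle library of Ppara lay above 1 treated library. The Ppara call was lost without dexamethasone replicate 1, 2 or 4, or vehicle replicate 1, 3 or 4 (limma adjusted p-values of 0.0615 to 0.119). Ppard read 15.7, 15.8, 13.5 and 16.5 TPM in dexamethasone, against 12.5, 17.3, 14.7 and 14.8 TPM in vehicle, and was not called.

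Angptl4 read 44.6, 32.5, 3.06 and 32.0 TPM in dexamethasone at 24 h, against 35.4, 36.5, 26.2 and 31.3 TPM in vehicle. Replicate 3 lay about 10-fold below the other treated libraries, and the gene was not called (adjusted p = 0.273). Ucp2 read 167, 94.2, 38.5 and 94.3 TPM in dexamethasone, against 122, 119, 86.1 and 119 TPM in vehicle. Ucp3 read 0.623, 0.248, 0.0322 and 0.404 TPM in dexamethasone, against 0.234, 0.112, 0.130 and 0.189 TPM in vehicle. Replicate 3 was again the lowest treated library for both, and neither was called.

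The plot of 12 genes by library sets these values beside those of the other groups.

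**Figure D2:**
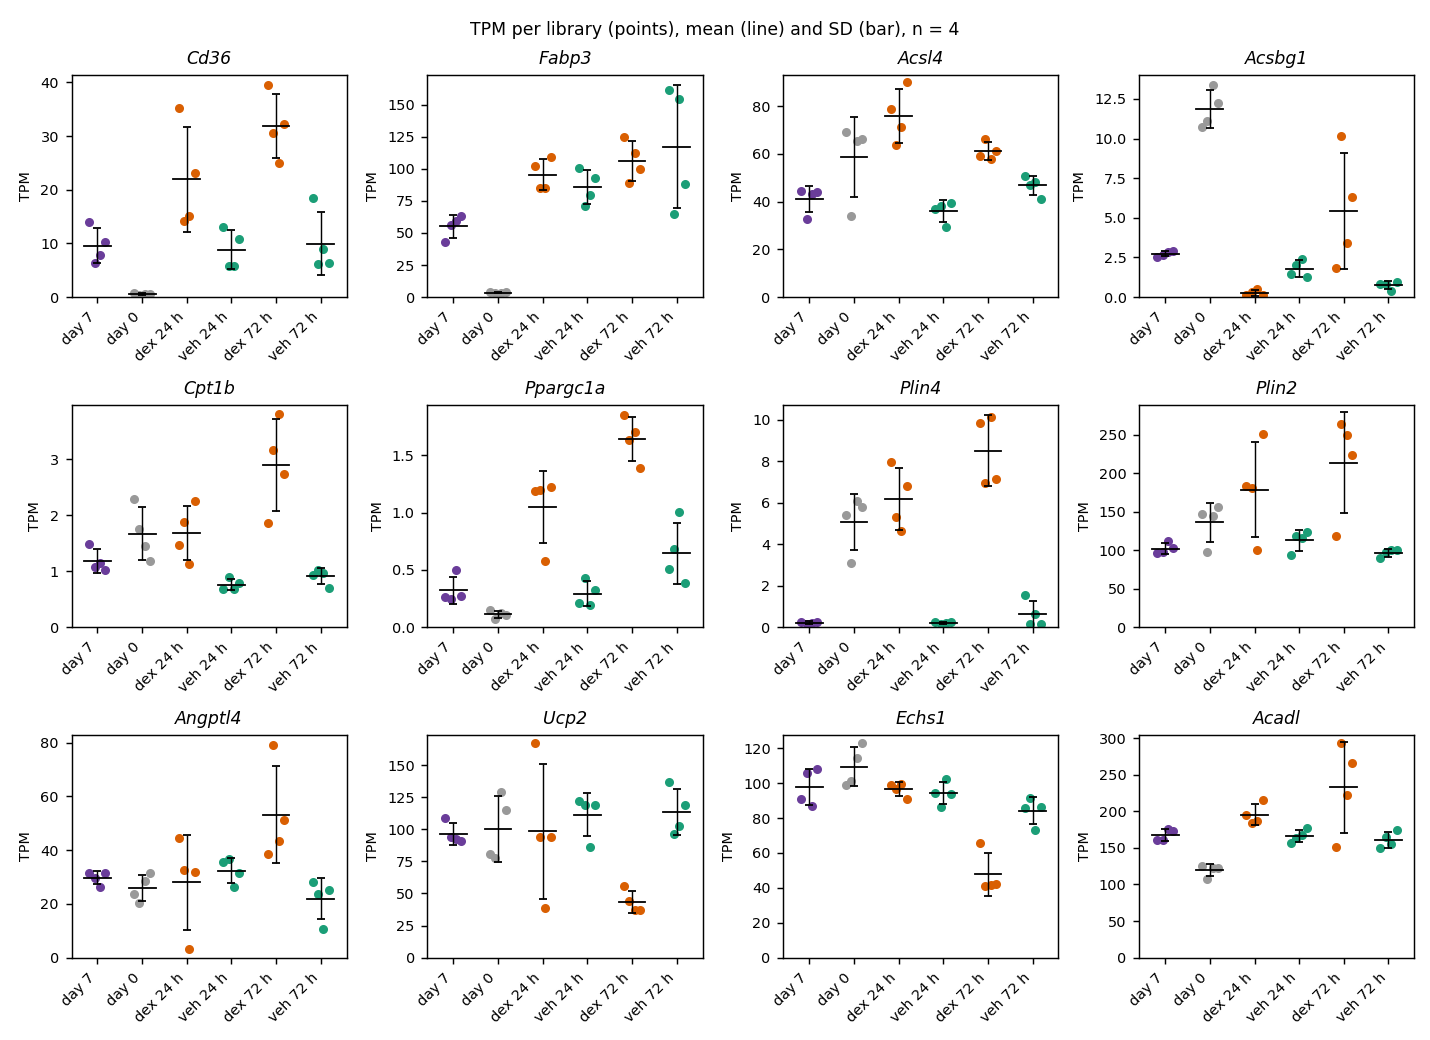
TPM of 12 genes in each library (points), with the group mean (line) and SD (bar), n = 4, on linear axes from 0. Plin4 lies at 4.66 to 10.1 TPM in every dexamethasone library, Acsbg1 is below vehicle at 24 h and above it at 72 h, Echs1 separates the arms at 72 h but not at 24 h, and Angptl4 has a single treated library at 3.06 TPM.

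After 72 h of dexamethasone the droplet coat genes Plin4 and Plin2, the uptake gene Cd36, Acsbg1 and the muscle form of CPT1 were higher, and Ucp2 and the hydratase Echs1 were lower. Of the 44 tested genes 12 were higher and 9 lower, which is 47.7% of them, against 30.3% of all genes tested (15.2% in each direction). The difference between these shares was not tested. The median log2 difference of these genes was 0.02, against 0.01 over all genes tested. Without both replicate 1 libraries 11 were higher and 7 lower, and on the TPM scale 8 were higher and 11 lower. The order of the 2 directions therefore depended on the scale. Leaving out a single library ended the calls of Acads, Acot1, Acot13, Acsl3, Acsl4, Angptl4, Cpt1c, Etfdh or Ppard (adjusted p-values of 0.0503 to 0.124) and no other.

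Plin4 read 9.83, 6.94, 10.1 and 7.12 TPM in dexamethasone at 72 h, against 1.54, 0.138, 0.654 and 0.148 TPM in vehicle (13.7-fold, adjusted p = 2.73e-07). The highest vehicle value was that of replicate 1. Without both replicate 1 libraries Plin4 averaged 8.06 ± 1.79 TPM in dexamethasone and 0.313 ± 0.295 TPM in vehicle (SD, n = 3 each, limma adjusted p = 2.53e-09), a vehicle mean under the 0.5 TPM below which no fold is given, so the fold of 13.7 depends on vehicle replicate 1. Plin2 read 118, 264, 249 and 224 TPM in dexamethasone, against 89.8, 97.6, 100 and 101 TPM in vehicle (2.20-fold, 2.47-fold without replicate 1, adjusted p = 0.000293). Replicate 1 was the lowest treated library of Plin2, but the arms did not overlap. Plin3 was not called.

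Cd36 read 39.5, 30.7, 25.0 and 32.2 TPM in dexamethasone at 72 h, against 18.5, 6.11, 8.90 and 6.41 TPM in vehicle (3.19-fold, 4.10-fold without replicate 1, adjusted p = 0.000372). Fabp3 read 125, 88.7, 112 and 99.5 TPM in dexamethasone, against 161, 64.4, 155 and 88.5 TPM in vehicle. Slc27a1 read 50.2, 35.4, 65.0 and 41.1 TPM in dexamethasone, against 49.2, 51.6, 62.7 and 49.3 TPM in vehicle. Cd36 separated the arms, while the other 2 uptake genes overlapped and were not called.

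Acsbg1 read 1.82, 10.2, 3.43 and 6.32 TPM in dexamethasone at 72 h, against 0.845, 0.824, 0.394 and 0.946 TPM in vehicle (7.21-fold, 9.19-fold without replicate 1, adjusted p = 3.06e-05). The treated libraries spanned more than 5-fold, yet each lay above each vehicle library. Acsl5 was 1.44-fold higher (1.43-fold without replicate 1), Acsl4 1.31-fold higher (1.36-fold) and Acsl3 1.32-fold lower (1.32-fold). Acsl1 averaged 21.4 ± 2.09 TPM in dexamethasone and 16.9 ± 3.03 TPM in vehicle (SD, n = 4 each), with an adjusted p of 0.104, and of 0.0199 with the replicate block.

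Cpt1b read 1.86, 3.16, 3.82 and 2.74 TPM in dexamethasone at 72 h, against 0.942, 1.03, 0.962 and 0.704 TPM in vehicle (3.18-fold, 3.60-fold without replicate 1, adjusted p = 8.16e-06). Cpt1a read 20.9, 23.0, 21.2 and 18.4 TPM in dexamethasone, against 20.9, 36.3, 25.2 and 25.8 TPM in vehicle, and was not called (adjusted p = 0.185). Cpt1c was 1.39-fold lower (1.54-fold lower without replicate 1, adjusted p = 0.0247). The shuttle genes Cpt2, Slc25a20 and Mlycd were not called.

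Echs1, the hydratase of the second step of mitochondrial β-oxidation, read 66.0, 41.2, 41.6 and 42.1 TPM in dexamethasone at 72 h, against 85.5, 91.5, 73.4 and 86.6 TPM in vehicle. It was 1.77-fold lower, and 2.01-fold lower without replicate 1, whose treated library was the highest of its arm (adjusted p = 0.000246). Acadl read 151, 293, 223 and 266 TPM in dexamethasone, against 149, 165, 155 and 174 TPM in vehicle (1.45-fold, 1.58-fold without replicate 1, adjusted p = 0.00203). Its replicate 1 alone lay within the vehicle range. Decr1 (1.38-fold, 1.39-fold without replicate 1), Acaa1a (1.30-fold, 1.37-fold) and Acads (1.24-fold, 1.23-fold) were lower, so that 1 of the 13 enzymes was higher and 4 were lower. Acads missed the threshold without both replicate 1 libraries (adjusted p = 0.0572). Etfdh was 1.18-fold higher with overlapping libraries, and 1.25-fold higher without replicate 1. The thioesterases Acot1 (1.74-fold, 1.93-fold without replicate 1) and Acot13 (1.33-fold, 1.35-fold) were lower, Acot13 with an adjusted p of 0.0296, and of 0.0531 without both replicate 1 libraries.

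Ucp2 read 55.8, 43.9, 36.7 and 37.1 TPM in dexamethasone at 72 h, against 137, 96.2, 103 and 119 TPM in vehicle (2.62-fold lower, 2.70-fold lower without replicate 1, adjusted p = 0.000914). Every treated library lay below every vehicle library. Ucp3 read 0.316, 0.415, 0.356 and 0.389 TPM in dexamethasone, against 0.453, 0.0642, 0.570 and 0.107 TPM in vehicle, with overlap and no call.

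Ppargc1a read 1.85, 1.63, 1.70 and 1.39 TPM in dexamethasone at 72 h, against 0.509, 0.683, 1.00 and 0.390 TPM in vehicle (2.54-fold, 2.27-fold without replicate 1, adjusted p = 0.000261). Ppard read 20.0, 20.3, 23.8 and 18.3 TPM in dexamethasone, against 15.9, 16.1, 18.9 and 17.2 TPM in vehicle (1.21-fold, 1.20-fold without replicate 1, adjusted p = 0.0165, and 0.0632 without both replicate 1 libraries, limma). Ppara read 0.293, 0.358, 0.323 and 0.311 TPM in dexamethasone, against 0.212, 0.390, 0.206 and 0.293 TPM in vehicle. Ppargc1a separated the arms, Ppard overlapped, and neither Ppara nor Ppargc1b was called.

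Angptl4 read 38.7, 79.1, 43.4 and 51.2 TPM in dexamethasone at 72 h, against 28.1, 23.8, 10.7 and 25.2 TPM in vehicle (2.42-fold, 2.91-fold without replicate 1, adjusted p = 0.0333). The arms did not overlap. On the TPM scale the adjusted p was 0.075, and on the deposited scale it was 0.11 without dexamethasone replicate 2, 0.0669 without dexamethasone replicate 4, 0.0552 without vehicle replicate 2 and 0.117 without vehicle replicate 3.

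**Figure D3:**
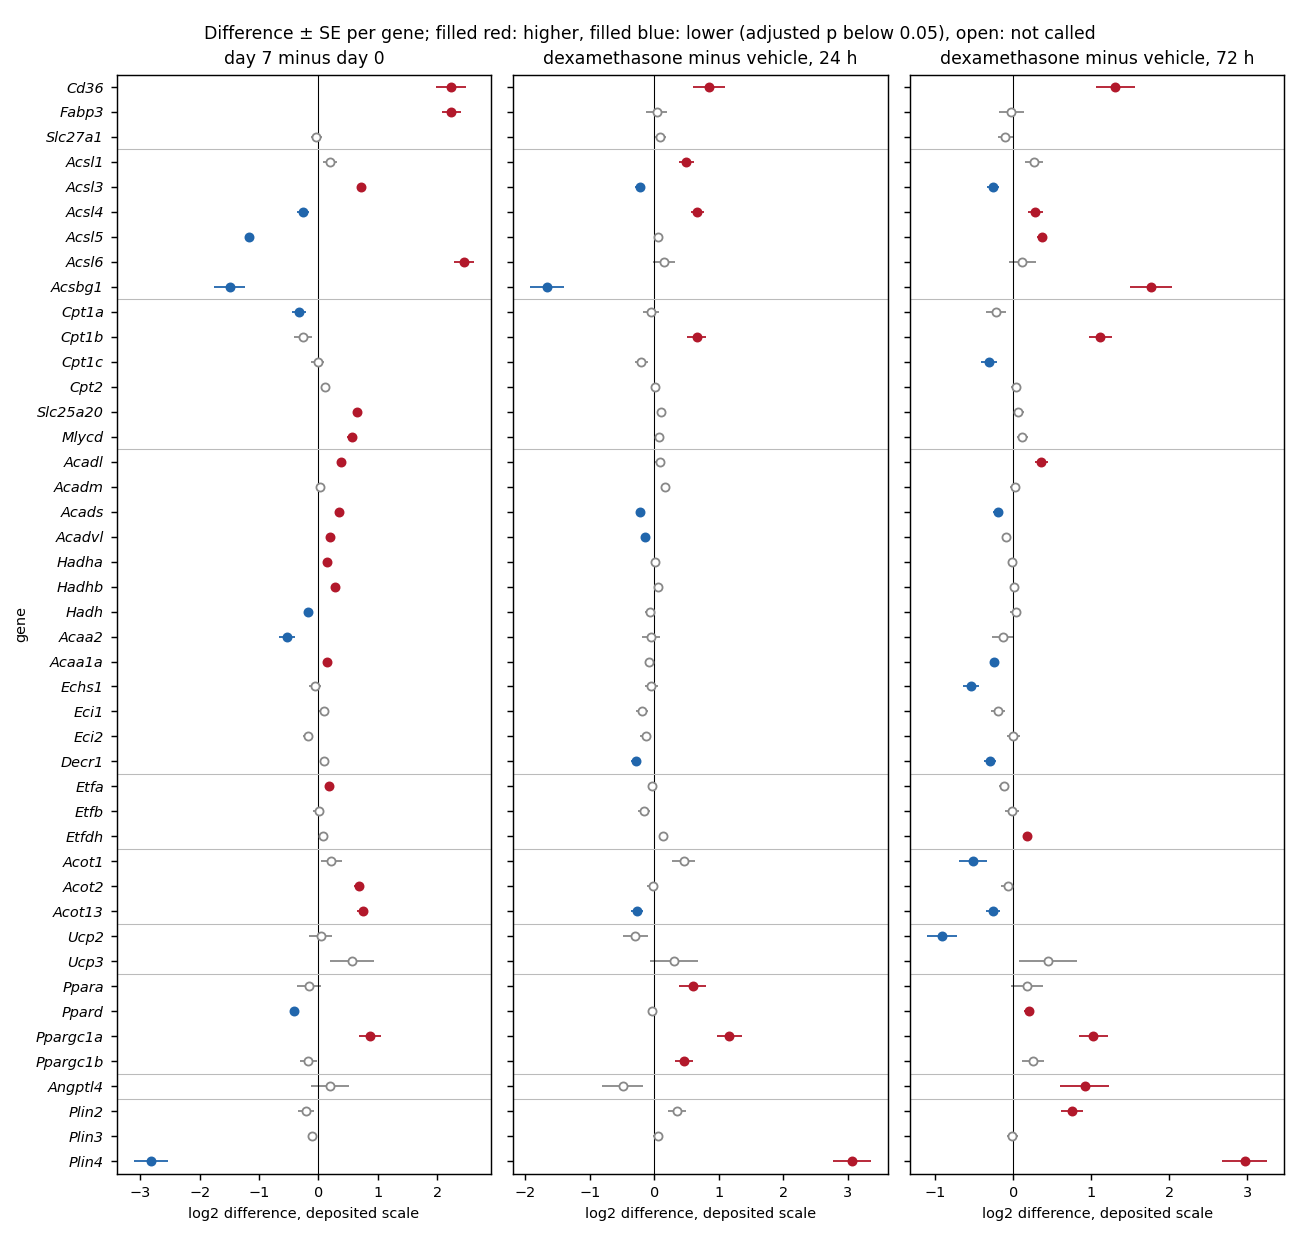
Log2 difference on the deposited scale with its SE (bar) for the 44 tested genes in differentiation (left) and under dexamethasone at 24 h (middle) and 72 h (right), in the same order of roles in each panel. Filled red points were called higher and filled blue points lower. Plin4 has the largest difference in all 3 panels (−2.82, 3.07 and 2.97), and most of the β-oxidation enzymes lie within 0.4 of 0.

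The 2 time points have separate vehicle libraries. Of the 14 genes called at 24 h and the 21 called at 72 h, 10 were called at both, which is 71.4% of the first list and 47.6% of the second. Over all genes tested 1931 were called at both, which is 46.7% of those called at 24 h and 39.2% of those called at 72 h, and the difference from these genes was not tested. Cd36, Acsl4, Cpt1b, Ppargc1a and Plin4 were higher at both times and Acsl3, Acads, Decr1 and Acot13 lower at both. Acsbg1 was lower at 24 h and higher at 72 h. The signed difference, the response at 72 h minus that at 24 h, was tested directly. It was called for 5 of the 44 genes, which is 11.4% against 11.3% of all genes tested. The difference was positive for 3 and negative for 2, and over all genes positive for 5.56% and negative for 5.77%. Its sign is not the size of a response: Echs1 and Acot1, both negative, were not called at 24 h and were lower at 72 h. On the TPM scale 1 was positive and 3 negative. Acsbg1 had the largest difference, 3.43 ± 0.37 on the log2 scale (adjusted p = 9.7e-06). Angptl4 differed by 1.40 ± 0.45 (adjusted p = 0.0468) and Acsl5 by 0.32 ± 0.09 (adjusted p = 0.0217) in the same direction, and Acot1 by −0.98 ± 0.25 (adjusted p = 0.014) and Echs1 by −0.50 ± 0.14 (adjusted p = 0.0237) in the opposite one. Without dexamethasone 24 h replicate 3, the library at 3.06 TPM, the Angptl4 difference was 0.88 (adjusted p = 0.022). Acsl4 differed by −0.39 ± 0.14, with an adjusted p of 0.0715, and of 0.0306 with the replicate block. Leaving out a single library ended the calls of Acsl5, Echs1 or Angptl4 (adjusted p-values of 0.0504 to 0.109), and the count was 2 without dexamethasone 72 h replicate 2 and 3 without dexamethasone 72 h replicate 4.

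Comparisons among the vehicle and untreated groups share libraries with those above. No tested gene of the 46 was called between vehicle at 24 h and day 7 myotubes, where limma called 0.209% of all genes (0.0984% higher and 0.111% lower), although 6 of the 44 had an unadjusted p under 0.05. The fit on TPM also called 0. Between vehicle at 72 h and vehicle at 24 h 1 gene was called, against 4.36% of all genes (2.67% higher and 1.69% lower). Acads read 62.9, 58.3, 60.5 and 63.7 TPM in vehicle at 72 h, against 70.5, 66.6, 74.6 and 70.9 TPM in vehicle at 24 h (1.15-fold lower, adjusted p = 0.0399). The groups did not overlap, but the call was lost on the TPM scale (adjusted p = 0.0559) and when any of 6 of the 8 libraries was left out. Of the 46 genes, 8 were tested and called in no comparison: Slc27a1, Cpt2, Acadm, Eci1, Eci2, Etfb, Ucp3 and Plin3.

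Genes of neighbouring pathways, 89 in 7 lists of which 79 were tested, were read alongside. In day 7 myotubes against day 0 myoblasts 31 rose and 15 fell (23 and 18 on the TPM scale), with dexamethasone for 24 h 24 rose and 4 fell, and with dexamethasone for 72 h 17 rose and 10 fell (11 and 9 on the TPM scale). Their median log2 differences were 0.10, 0.13 and −0.01, beside 0.01, −0.01 and 0.01 over all genes tested. The shares called were 58.2% in differentiation, 35.4% at 24 h and 34.2% at 72 h, beside 60.3%, 25.4% and 30.3% of all genes tested. Counts in the lists that follow have the same shares of all genes as their background, and no list was tested against it. In lipolysis, 4 of 9 tested genes were higher and 1 lower at 24 h. Pnpla2, the triglyceride lipase ATGL, read 44.1, 47.5, 38.7 and 58.1 TPM in dexamethasone at 24 h, against 21.0, 30.0, 26.7 and 29.7 TPM in vehicle (1.75-fold, adjusted p = 0.000297). G0s2, the inhibitor of ATGL, fell to 29.4, 17.4, 20.9 and 11.8 TPM in dexamethasone, against 116, 104, 94.0 and 92.6 TPM in vehicle (5.12-fold lower, adjusted p = 3.44e-05). The ATGL activator Abhd5 was 1.38-fold higher and the hormone-sensitive lipase Lipe 1.77-fold higher. At 72 h 2 of 9 were higher and 3 lower: Pnpla2 was 1.78-fold higher (1.87-fold without replicate 1), while G0s2 was 6.36-fold lower (10.8-fold), the monoglyceride lipase Mgll 2.35-fold lower (4.19-fold) and the lysosomal lipase Lipa 1.48-fold lower (1.54-fold). Without both replicate 1 libraries 1 was higher and 3 lower.

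In triglyceride and droplet assembly, 3 of 12 tested genes were higher and none lower at 24 h: the phosphatidate phosphatase Lpin3 (1.67-fold), Dgat2, which makes triglyceride (1.59-fold), and the acyltransferase Agpat3 (1.52-fold). At 72 h 4 were higher (1 on the TPM scale) and none lower, among them Agpat3 (1.61-fold, 1.75-fold without replicate 1) and Dgat2 (1.38-fold, 1.42-fold). Among other uptake and binding genes, 3 of 9 were higher and 1 lower at 24 h. Fabp4, the fatty acid binding protein of adipocytes and macrophages, read 51.1, 32.7, 37.8 and 30.2 TPM in dexamethasone at 24 h, against 0.153, 0.0368, 0.321 and 0.0680 TPM in vehicle (adjusted p = 8.06e-08). At 72 h it read 59.3, 72.7, 84.8 and 83.9 TPM in dexamethasone, against 8.14, 0.170, 0.143 and 0.157 TPM in vehicle, whose replicate 1 stood far above the other 3 (limma adjusted p = 1.45e-07, and 3.66e-13 without both replicate 1 libraries). Vldlr, a receptor for triglyceride-rich lipoproteins, was 3.30-fold higher at 24 h, and Cav1, of caveolae, 1.87-fold lower. Fabp5, the epidermal binding protein, was 6.29-fold higher at 72 h (6.51-fold without replicate 1). In differentiation 1 of these 9 genes was higher and 2 were lower: Fabp5 fell to 10.6 ± 5.39 TPM in day 7 myotubes, against 154 ± 3.02 TPM in day 0 myoblasts (SD, n = 4 each, 14.4-fold lower, limma adjusted p = 1.03e-09), and the transport protein gene Slc27a3 was 2.77-fold lower.

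Of the regulators and fuel-switch genes, 8 of 17 were higher and none lower at 24 h, and 6 were higher and 1 lower at 72 h (3 and none on the TPM scale). Pdk4, the kinase that shuts pyruvate dehydrogenase and so spares glucose, read 280, 240, 166 and 362 TPM in dexamethasone at 24 h, against 13.8, 19.9, 22.7 and 21.8 TPM in vehicle (13.4-fold, adjusted p = 5.53e-10), and was 3.49-fold higher at 72 h (3.44-fold without replicate 1). Klf15, a transcription factor induced by glucocorticoids, was 30.5-fold higher at 24 h and 3.94-fold higher at 72 h (3.40-fold without replicate 1). Prkaa2, the muscle catalytic subunit of AMP-activated kinase, was 1.97-fold and 1.98-fold higher at these times (2.18-fold at 72 h without replicate 1), and the corepressor Nrip1 2.58-fold and 1.42-fold (1.43-fold). Of 13 peroxisomal genes, dexamethasone raised 2 and lowered 1 in the first 24 h, with the transporter Abcd2 3.67-fold higher, and lowered 2 by 72 h. Among carnitine genes 2 of 5 were higher at 24 h, Acaca, which makes malonyl-CoA (1.50-fold), and Crat, carnitine acetyltransferase (1.40-fold), and Crat was 1.38-fold higher at 72 h, with and without replicate 1. The other mitochondrial acyl-CoA enzymes had 2 of 15 higher and 1 lower at 24 h, and 2 higher and 3 lower at 72 h.

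**Figure D4:**
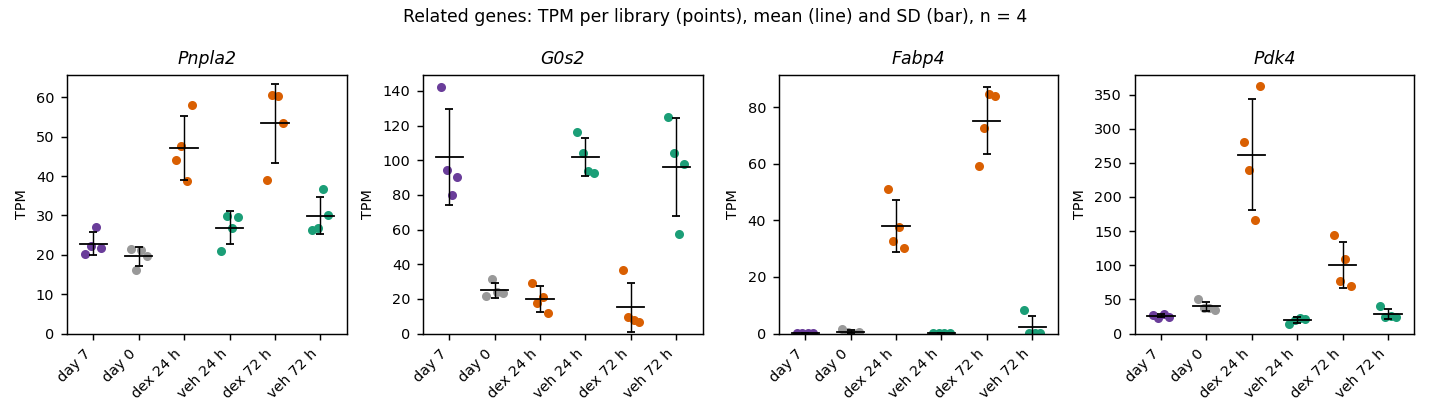
TPM of 4 related genes in each library (points), with the group mean (line) and SD (bar), n = 4, on linear axes from 0. Pnpla2, Fabp4 and Pdk4 lie above vehicle and G0s2 below it in every dexamethasone library, and Fabp4 reaches 8.14 TPM in 1 vehicle library at 72 h.

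Marker genes of other cell types moved with some of these changes. The 10 adipocyte markers summed to 143 to 222 TPM in dexamethasone at 24 h, against 21.5 to 38.7 TPM in vehicle, and to 114 to 162 TPM in dexamethasone at 72 h, against 31.1 to 40.9 TPM in vehicle. Fabp4, Cebpa, Pparg and Lipe were the 4 tested markers, of which all 4 were higher at 24 h and 2 at 72 h. The untested markers Adipoq, Lep, Cidec, Plin1, Retn and Cfd averaged 1 TPM or less in every one of these groups. Their part in the rise of Plin4 and Cd36 was not tested. The 7 division markers summed to 227 to 569 TPM in dexamethasone at 72 h, against 87.0 to 128 TPM in vehicle, with all 7 called higher. Fibroblast markers summed to 56.2 to 163 TPM in dexamethasone at 72 h, against 338 to 634 TPM in vehicle, with 5 of 6 tested called lower. Plin4, Acsbg1, Acsl5, Acsl4 and Ppard were higher at 72 h and were lower in day 7 myotubes than in dividing day 0 myoblasts. Of the other genes higher at 72 h, Cd36, Acadl and Ppargc1a were higher in day 7 myotubes too. Cpt1b, Etfdh, Angptl4 and Plin2 were not called in differentiation. Among related genes, Fabp5 and Acot7 were higher at 72 h and lower in day 7 myotubes, while Prkaa2 and Fitm2 were higher in both comparisons. The share of all genes with either pattern was not counted. At 24 h Plin4 and Acsl4 were higher, Acsbg1 was lower, and Acsl5 and Ppard were not called. At that time none of the 7 division markers was called, while 1 fibroblast marker was higher and 2 were lower. The part of division and of fibroblast-like cells in the 72 h results was not tested.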

How the data were processed

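Levels come from a table of TPM made by the authors. Tests used a second deposited table, of values normalised on a log2 scale; the method behind it is not given in the sources used here. Salmon, kallisto 0.51.1, DESeq and the build GRCm39 are named in the submitters' processing notes. The deposited log2 differences are shrunken, with slopes of 0.635 to 0.706 on log2(TPM + 0.1) differences, and understate folds.

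Genes reaching 10 after raising 2 to the deposited value, in at least 4 libraries (16257), were fitted with limma 3.58.1 in R 4.3.3, with a mean-variance trend over all 24 libraries. The fit was checked on simulated data for dexamethasone against vehicle at 24 h. It called 61% of 100 genes changed by 0.5 on the log2 scale, 92% of 100 changed by 1, and 8 unchanged genes. A gene not called may therefore still differ by such an amount. Benjamini-Hochberg adjustment ran over all genes within a comparison. Genes and lists were chosen with earlier results of these data known. Values in every library are given for the called genes with the largest ratios, up to 8 a comparison with at least 1 TPM in a group, and for genes whose role a reader looks for; up to 4 called genes of each related list were named. Replicate numbers paired the libraries in differentiation (correlations of same-numbered deviations 0.145 to 0.212) and in dexamethasone against vehicle at 24 h (0.201 to 0.391) and 72 h (0.117 to 0.338). Alternatives were TPM with pseudocounts of 0.1 and 1, no filter, quantile normalisation, a replicate block, the compared groups alone, and libraries left out.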

Additional observations from a re-analysis of the deposited data

Results flagged for a closer look

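Single libraries lay far from the other 3 of their group in 18 of 243 groups of 4 examined, where chance gives about 1 in 20. Under dexamethasone these were Echs1 at 66.0 TPM and Decr1 at 20.4 TPM in 72 h replicate 1, Hadha at 110 TPM in 72 h replicate 4, and Mlycd at 18.0 TPM and Ppargc1a at 0.577 TPM in 24 h replicate 3. In vehicle they were Acadvl at 81.6 TPM in 24 h replicate 1, Ucp2 at 86.1 TPM in 24 h replicate 3 and Acot2 at 15.5 TPM in 72 h replicate 3. In day 7 myotubes they were Ucp2 at 109 TPM in replicate 1, Acsl1 at 6.95 TPM and Acsl4 at 32.9 TPM in replicate 2, and Acsl3 at 186 TPM and Acadvl at 84.6 TPM in replicate 3. In day 0 myoblasts they were Acsl4 at 33.9 TPM, Acadl at 108 TPM and Etfdh at 29.8 TPM in replicate 2, and Acadm at 85.9 TPM and Eci2 at 69.3 TPM in replicate 4.

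The dexamethasone response differed between 72 h and 24 h, by the test of that difference, for Acsbg1 (log2 difference of 3.43), Angptl4 (1.40), Acsl5 (0.32), Echs1 (−0.50) and Acot1 (−0.98). The call of Acsl5 was lost without dexamethasone 72 h replicate 2, and that of Echs1 without dexamethasone 72 h replicate 2 or 4. The call of Angptl4 was lost without either of these, without any one vehicle 24 h library, and without vehicle 72 h replicate 2, 3 or 4. On the TPM scale 3 of the 5 calls held, and Angptl4 was not among them.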

How the results depend on the processing

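No call for a gene of the set reversed its direction under any alternative run. The replicate block removed no call among these genes; those it added in differentiation and under dexamethasone are given beside their genes. Leaving out 1 library gave 19 to 24 calls among these genes in differentiation, 7 to 17 at 24 h (9 without dexamethasone replicate 4, 7 without vehicle replicate 3), 14 to 20 at 72 h, 2 to 7 for the difference between times, and 0 to 6 for vehicle 72 h against 24 h. Over all genes at 24 h it gave 2706 calls (without dexamethasone replicate 4) to 4358, with 2741 without vehicle replicate 3.

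Counts between the vehicle and untreated groups moved most. For vehicle 24 h against day 7, all-gene calls were 34, and 4 on TPM with 0.1 added, 5 with 1 added, 4 without a filter, 0 with the compared groups alone, 11 without both 72 h replicate 1 libraries, 1 on TPM without them, and 0 to 328 on leaving out 1 library. For vehicle 72 h against 24 h, calls among these genes were 1, and 0 on TPM with either pseudocount, without a filter, with the compared groups alone or on TPM without the 72 h replicate 1 libraries, and 2 without those libraries on the deposited scale. All-gene calls were 709, and 270 on TPM with 0.1 added, 264 with 1 added, 94 without a filter, 4 with the compared groups alone, 380 without both 72 h replicate 1 libraries, 0 on TPM without them, and 2 to 1751 on leaving out 1 library. The replicate block gave 109 calls over all genes for vehicle 24 h against day 7, and 1067 over all genes and 3 among these genes for vehicle 72 h against 24 h, where it added Acsl1 (limma adjusted p = 0.102, and 0.0352 with the block) and Acsbg1 (0.0572, and 0.0447 with the block). In these pairs of groups the numbers paired replicate 1 (correlations of 0.492 and 0.565) but not all libraries. Same-numbered correlations ran from −0.014 to 0.492 and from −0.249 to 0.565, and 3 of 8 and 4 of 8 libraries correlated best with their own number. The cause of these moves was not tested. The fit on TPM without the 72 h replicate 1 libraries was chosen after seeing the data. On the TPM scale the median of all genes shifted by 0.13 for vehicle 72 h against 24 h and by −0.12 for the difference between times.

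Depth is unknown, and genes under 0.5 TPM (Ucp3, Ppara, Ppargc1a in day 7, day 0 and vehicle 24 h, Plin4 in day 7 and vehicle 24 h, Acsbg1 in dexamethasone 24 h, by group mean) are the levels it limits most.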
